A study of Mus musculus with 6 samples.

Results

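The genes described here encode the folding machinery of the endoplasmic reticulum (ER) and the unfolded protein response (UPR), the signaling system that adjusts this machinery. They were taken from a list of 36 gene symbols, of which 35 were among the 13008 genes measured, and Chac1 was not analysed here. Hspa5, which encodes the chaperone GRP78 (also called BiP), is the member that ties the list to Cripto, since GRP78 is a known partner of Cripto at the cell surface. Transcript levels were measured by RNA-seq in F4/80+/Ly6C-Low macrophages (MPs) sorted from mouse hind limb muscles on day 5 after injury with cardiotoxin, a toxin that destroys muscle fibers. The comparison addressed which transcripts differ when MPs lack Cripto, a membrane-anchored co-receptor of TGF-beta family ligands, and 3 samples of each genotype were analyzed. All 6 samples were labelled as C57BL/6J males 3 months of age.

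The Cripto KO samples carried Tg:LysMCre::Cripto-/-, in which the lysozyme M promoter drives Cre in the myeloid lineage, so that other cells of these mice keep the gene. The labels give Control as wild type, whereas the study sorted GFP+ cells, in which Cre had recombined the R26mTmG reporter, and describes the Control mice as Tg:LysMCre::R26mTmG. By the study's account, deletion in the sorted MPs was not complete. The deleted gene itself, Tdgf1, was not analysed here and could not serve as a check of the labels. Values are the normalized signal that was deposited, in which 0.5 is added to the reads of a gene before scaling to a library size of 1000000, and the samples held between 12688968 and 15659847 recovered reads. At this depth 34 of the 35 genes had over 100 reads in every sample. Trib3, with at least 24 reads, was the exception. In 2 Control libraries a gene went against the other samples. Xist, which is transcribed from the inactive X chromosome of females, reached 171 in Control replicate 1, against 0.114 to 0.885 elsewhere, so that this library went against its male label. Lyz2, the lysozyme M gene into which LysM-Cre is inserted, was 11066 in Control replicate 2 but 25.2 and 21.4 in Control replicates 1 and 3, close to the 21.2 to 28.3 of Cripto KO. The Control samples thus differed from one another at the gene that carries Cre, and its relation to their genotype was not tested. The labels do not say whether samples were single mice, so p-values measure the spread between these samples.

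Proteins that enter the secretory pathway fold in the ER with the help of Hsp70-type and Hsp90-type chaperones, of the lectin chaperones calnexin and calreticulin, and of protein disulfide isomerases (PDIs), which form and exchange disulfide bonds. When unfolded proteins accumulate, the sensors IRE1, PERK and ATF6 signal through the transcription factors XBP1, ATF4 and cleaved ATF6 to raise chaperones and the machinery of ER-associated degradation (ERAD), and PERK also restrains translation. MPs that clear debris and secrete cytokines and matrix regulators rely on this capacity.

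The best known DNA element of this response is the ER stress response element, CCAAT, any 9 bases and CCACG, which binds NF-Y together with ATF6 or XBP1. RefSeq promoters (GRCm38.p6, 250 bases before to 50 bases after the start site) were matched for 30 of the 35 genes, with 31 promoters in all. On either strand, the element was found in 8 of these 31 promoters (25.8%) and in 39 of the 32851 promoters of all genes (0.119%). Its matches are shown because they are the sequence that members with different roles share. They are written in the direction of the element, with CCAAT and CCACG in capitals.
Hspa5: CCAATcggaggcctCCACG
Hsp90b1, distal: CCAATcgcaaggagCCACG
Hsp90b1, proximal: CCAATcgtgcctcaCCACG
Creld2: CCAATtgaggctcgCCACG
Dnajc3: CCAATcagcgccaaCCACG
Calr: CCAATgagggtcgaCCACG
Canx: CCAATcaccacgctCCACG
Pdia6: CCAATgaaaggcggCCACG
Syvn1: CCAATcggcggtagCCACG

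The element of Hspa5 lay at chr2:34772025-34772043, with its first base 65 bases before the start site of RefSeq (inside the gene as GENCODE places it), and those of Pdia6 and Creld2 lay at chr12:17266491-17266509 and chr15:88819520-88819538. The promoters of these 3 genes are printed 5′ to 3′ on the strand of the gene, with the element in capitals. They represent the gene of GRP78, a PDI and another luminal protein. The Creld2 match is on the opposite strand, so that its capitals read as the reverse complement of the line above.
Hspa5, chr2:34771840-34772139, plus strand: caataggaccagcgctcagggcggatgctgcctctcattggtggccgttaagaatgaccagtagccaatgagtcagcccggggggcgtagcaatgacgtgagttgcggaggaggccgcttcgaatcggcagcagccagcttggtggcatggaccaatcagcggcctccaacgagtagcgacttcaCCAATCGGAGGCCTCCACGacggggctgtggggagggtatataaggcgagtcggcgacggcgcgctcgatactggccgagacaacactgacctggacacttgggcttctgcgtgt
Pdia6, chr12:17266339-17266638, plus strand: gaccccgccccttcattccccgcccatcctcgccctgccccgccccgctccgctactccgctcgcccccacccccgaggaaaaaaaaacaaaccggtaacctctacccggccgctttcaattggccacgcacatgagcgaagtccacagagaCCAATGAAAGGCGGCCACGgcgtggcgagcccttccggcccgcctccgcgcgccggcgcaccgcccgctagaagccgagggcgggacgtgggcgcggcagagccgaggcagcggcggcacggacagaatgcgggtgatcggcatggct
Creld2, chr15:88819396-88819695, plus strand: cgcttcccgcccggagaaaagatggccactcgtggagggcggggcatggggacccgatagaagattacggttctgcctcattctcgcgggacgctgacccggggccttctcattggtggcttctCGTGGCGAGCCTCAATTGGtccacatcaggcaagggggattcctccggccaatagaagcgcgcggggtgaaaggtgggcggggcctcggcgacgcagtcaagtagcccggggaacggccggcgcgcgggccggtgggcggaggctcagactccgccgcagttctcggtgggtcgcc

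A second form of the element, ATTGGNCCACG, was found in the promoters of Herpud1 (ATTGGgCCACG) and Dnajb11 (ATTGGcCCACG), and in 0.0365% of all promoters. The UPR element TGACGTGG (0.676% of all promoters) and the ATF4 and C/EBP element TGATGNAAT (0.965%) were found in 0 of the 31 promoters. In the map of element positions, the distal match of Hsp90b1 lay 212 bases before the start site, that of Dnajb11 lay after it, and the remaining matches began between 44 and 162 bases before it. A match describes letters in this window and was not tested for binding.

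**Figure D1:**
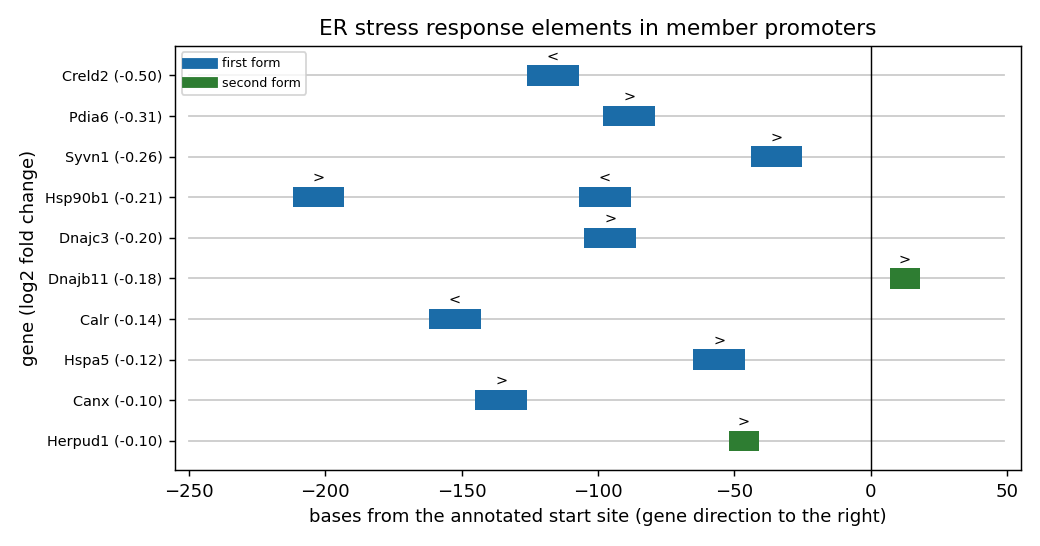
Positions of the ER stress response element (blue) and its second form (green) in the RefSeq promoters of 10 genes, in bases from the start site, with the arrow giving the strand of the match and the number beside each gene its log2 fold change in Cripto KO over Control. Of the first form, Hsp90b1 held 2 matches and the other 7 genes 1 each, and the second form of Dnajb11 lay after the start site.

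Hspa5 was the most abundant of these transcripts per kilobase (level per kb of the longest annotated coding transcript, 681 in Control), followed by Calr (506). Next stood P4hb, Ppp1r15a, Pdia3 and Hsp90b1, which lay between 240.1 and 254 and differed from their neighbours in this order by less than the SD over samples. The sensors Atf6 (11.2), Ern1 (10.4) and Eif2ak3 (4.19) lay near the lower end, and Trib3 (1.02) was the lowest. The 35 genes together held between 0.920% and 0.964% of the reads in Control, against 0.830% to 0.894% in Cripto KO. The ranges of the groups did not overlap. In sorted bulk samples, fewer cells of a type and less RNA per cell cannot be told apart.

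By limma, 0 of the 35 reached an adjusted p-value under 0.05, against 0.131% of all genes, and 11 had an unadjusted p-value under 0.05. On the recovered reads, edgeR gave 0 of the 35 with an adjusted p-value under 0.05 (17 of all genes). DESeq2 gave 2 of the 35 (71 of all genes). All 11 genes of the limma fit were lower in Cripto KO, where 4.6% of all genes had such a p-value, and 0 were higher, where 3.99% of all genes did. The list was chosen with earlier results of these data known, so these counts are a description only. For 10 genes the 3 Cripto KO values all lay below the 3 Control values (8.02% of all genes), and for 0 genes they all lay above (6.43%). The log2 fold change (Cripto KO over Control) was negative for 30 of the 35 genes, against 6839 of all 13008 genes. Its median was -0.10, beside -0.01 over all genes, and the SD within groups of the samples' median level over the 35 genes was 0.045 on the log2 scale. Without Control replicate 1, 15 of the 35 genes had an unadjusted p-value under 0.05 and were lower in Cripto KO (5.44% of all genes), and without Control replicate 2 there were 10 (4.17%), with 0 higher in either fit. These are the libraries that stood apart in Xist and Lyz2.

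**Figure D2:**
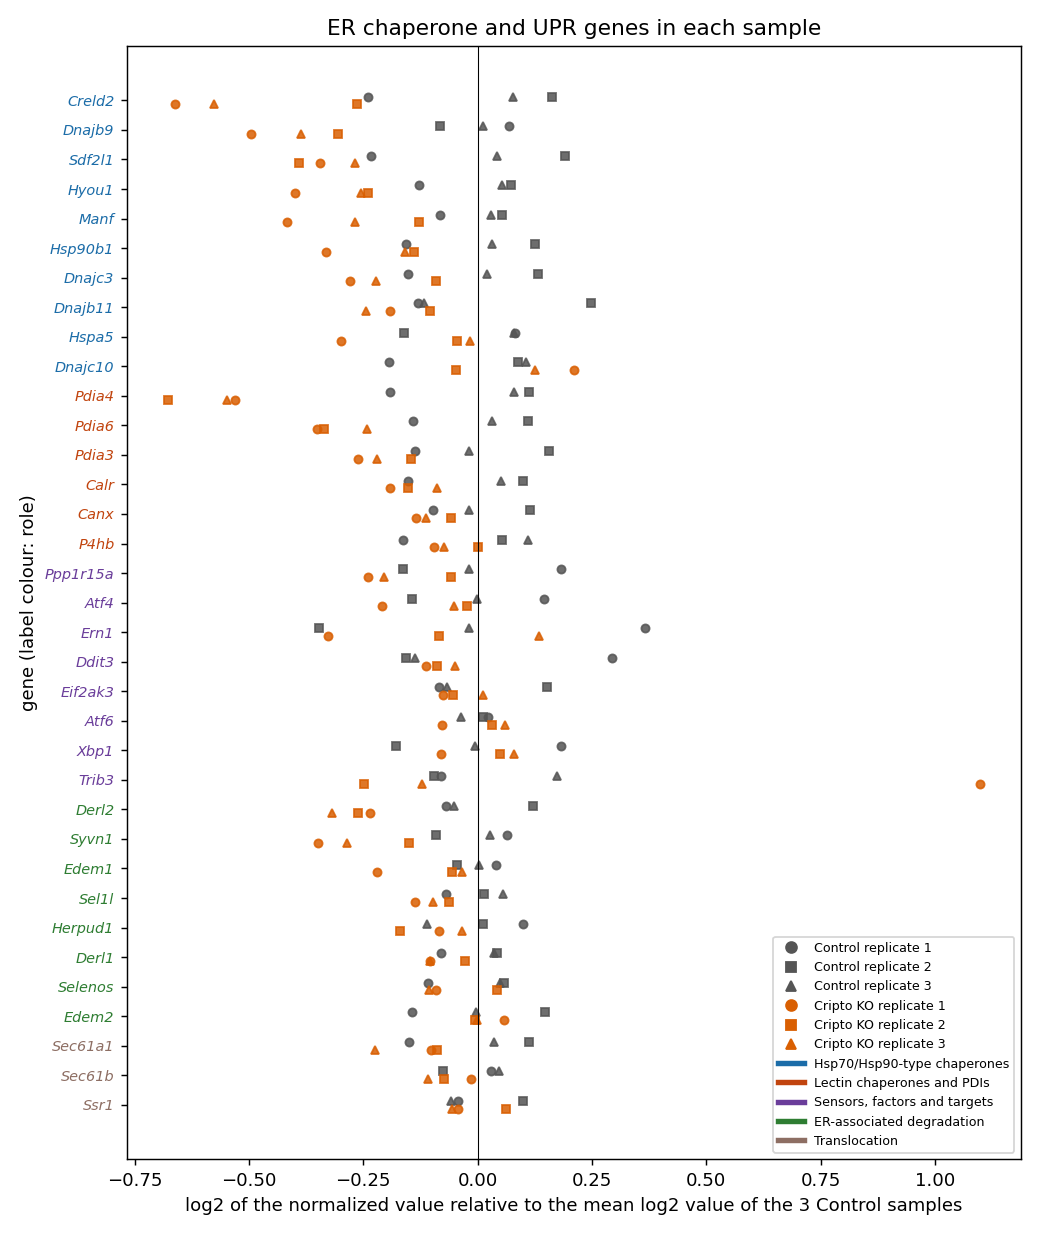
Level of each of the 35 genes in each of the 6 samples, as the log2 of the normalized value relative to the mean log2 value of the 3 Control samples (x axis), with genes ordered by role and fold change. For Pdia4, Creld2, Dnajb9 and the 7 other genes whose groups did not overlap, all Cripto KO points (orange) lie left of all Control points (gray), whereas the points of the sensors are mixed.

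The signal of other cell types was compared in the same samples. The 8 macrophage markers, led by Csf1r, Cd68 and Adgre1, summed to between 6407 and 7244 in Control, against 6450.4 to 7775 in Cripto KO. Within this sum Lyz1 varied from 410 to 1933 between samples, and Ptprc, which encodes the leukocyte antigen CD45, was between 474 and 502 in Control, above the 394 to 464 of Cripto KO, with the only unadjusted p-value under 0.05 of the 8 markers and none adjusted. The 6 fibroblast markers summed to between 459 and 481 in Control, against 540 to 591 in Cripto KO, with 5 of 6 at an unadjusted p-value under 0.05 and 0 at an adjusted one. Fibroblast signal was thus higher in the samples where the ER genes were lower, and its part in the results was not tested. Of the markers of B and plasma cells, which are rich in ER, Ighm lay between 67.6 and 103 in Control, against 81.3 to 105 in Cripto KO, and Jchain had at most 3 reads in any sample. Muscle markers (25.6 to 54.6 and 14.4 to 41.3), endothelial markers (33.7 to 41.6 and 32.003 to 38.3) and neutrophil markers (97.9 to 105 and 92.4 to 101, with S100a9 at 0 reads) overlapped between the groups in their sums. Of the muscle markers, Myh4 was lower in Cripto KO without overlap (6.32 to 18.1 against 0.103 to 5.62, log2 fold change -3.58), Ckm was lower (log2 fold change -1.71) and Myog higher (0.94), each with an unadjusted p-value under 0.05 and 0 with an adjusted one in limma, and their part in the results was not tested. T cell markers were not analysed here.

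Among the 10 chaperones of the Hsp70 and Hsp90 type and their partners, 6 had an unadjusted p-value under 0.05. All 6 were lower in Cripto KO (4.6% of all genes), and 5 did not overlap between the groups (8.02% of all genes lower). The median log2 fold change was -0.24. Hspa5 itself was not among the 6. Its values were 2639.9, 2229.9 and 2634 in Control against 2028, 2417 and 2467 in Cripto KO. The groups overlapped, because Control replicate 2 lay below 2 of the 3 Cripto KO samples. The mean was 2501 ± 235 in Control and 2304 ± 240.0 in Cripto KO (SD, n = 3 each). Its log2 fold change was -0.12 with a 95% confidence interval from -0.37 to 0.13, which spans a level 22.4% lower to 9.14% higher (limma adjusted p = 0.798). It was -0.030 without Cripto KO replicate 1, -0.20 without Control replicate 2 and -0.031 under quantile normalization. Hspa5 lies at chr2:34771970-34777547 on GRCm38.

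Dnajb9 encodes ERdj4, a J-domain protein that delivers misfolded clients to GRP78 and represses IRE1. It measured 106, 95.6 and 102 in Control against 71.7, 81.9 and 77.3 in Cripto KO. All 3 Cripto KO values were lower than any Control value. The level was 24.0% lower in Cripto KO (log2 fold change -0.40, 95% confidence interval -0.57 to -0.22, limma adjusted p = 0.165). DESeq2 on the recovered reads gave an adjusted p of 0.0228, and that of the other 15 fits lay between 0.161 and 0.581. Of its 31-base words, 11.3% are shared with the predicted gene Gm6568, so that part of its reads could have been assigned either way.

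Creld2 encodes a luminal protein that the UPR induces, and its promoter is printed above. Its values were 43.0, 56.7 and 53.5 in Control against 32.03, 42.2 and 34.0 in Cripto KO. The gap between the groups was narrow, since Control replicate 1 lay just above Cripto KO replicate 2. The means were 51.1 ± 7.20 and 36.1 ± 5.40 (SD, n = 3 each), 29.3% lower in Cripto KO (log2 fold change -0.50, 95% confidence interval -0.80 to -0.20, limma adjusted p = 0.407). This was the largest negative fold change of the 10 chaperones and the second among all 35 genes, after Pdia4.

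Hyou1 encodes GRP170, a large Hsp70-like protein that acts as a nucleotide exchange factor of GRP78. It measured 122, 140.0 and 138 in Control against 101, 113 and 112 in Cripto KO, 18.6% lower (log2 fold change -0.30, limma adjusted p = 0.407). Sdf2l1, a partner of ERdj3 in keeping clients soluble, measured 102, 137 and 123 in Control against 94.3, 91.3 and 99.4 in Cripto KO, 20.7% lower (log2 fold change -0.33). In both genes Control replicate 1 was the lowest Control sample and still lay above every Cripto KO sample.

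Manf encodes a secreted, stress-induced factor that binds GRP78. It measured 147, 161 and 158 in Control against 116, 142 and 129 in Cripto KO, 17.1% lower (log2 fold change -0.27). The groups did not overlap, with Cripto KO replicate 2 closest to Control. Manf lies on chromosome 9 at 4.05 Mb from Tdgf1, the deleted gene, and Hyou1 on the same chromosome at 66.5 Mb, and the part of this position in the values was not tested.

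Hsp90b1 encodes GRP94, the Hsp90 of the ER, which folds integrins and Toll-like receptors. It measured 606, 737 and 691 in Control against 537, 614 and 605 in Cripto KO, 13.5% lower (log2 fold change -0.21, limma adjusted p = 0.562). The groups overlapped, since Cripto KO replicate 2 lay above Control replicate 1, and the unadjusted p-value was under 0.05 in 7 of 16 fits. The J-domain proteins Dnajc3 (P58IPK, log2 fold change -0.20) and Dnajb11 (ERdj3, -0.18) overlapped between the groups too. Dnajc10, an ER reductase, was the 1 chaperone of this set with a positive value (0.10, and -0.00043 to 0.17 when 1 sample was left out).

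Among the 6 lectin chaperones and PDIs, 3 had an unadjusted p-value under 0.05, all lower in Cripto KO (4.6% of all genes). These 3 were without overlap (8.02% of all genes lower), and the median log2 fold change of the 6 was -0.18. Pdia4 encodes ERp72, a PDI of the luminal chaperone complex around GRP78, and lies at chr6:47796141-47813430 on GRCm38. It measured 108, 133 and 130.4 in Control against 85.4, 77.2 and 84.5 in Cripto KO. The lowest Control sample lay well above the highest Cripto KO sample. The mean was 124 ± 13.8 in Control and 82.4 ± 4.51 in Cripto KO (SD, n = 3 each). By the log2 fold change the level was 33.3% lower. The log2 fold change was -0.59 (95% confidence interval -0.79 to -0.38), the largest difference and the smallest p-value of the 35 genes, with rank 21 among all 13008 genes. The adjusted p was 0.0772 in limma, 4.74e-05 in DESeq2 and 0.00881 in limma without Control replicate 1, the library whose Pdia4 level was the lowest of the Control samples, and between 0.0563 and 0.405 in the other fits.

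Pdia6 encodes P5, a PDI that works with GRP78. Its values were 286, 341 and 323 in Control against 247, 249.9 and 267 in Cripto KO. Again the 3 Cripto KO samples lay close together and below every Control sample, 19.3% lower on average (log2 fold change -0.31, 95% confidence interval -0.49 to -0.13, limma adjusted p = 0.377). Pdia3, or ERp57, the PDI that serves calnexin and calreticulin and the loading of MHC class I, measured 609, 746 and 662 in Control against 559, 606 and 575 in Cripto KO (log2 fold change -0.21, limma adjusted p = 0.537). Its groups did not overlap by a narrow margin, and its unadjusted p-value was under 0.05 in 10 of 16 fits. The lectin chaperones Calr (-0.14) and Canx (-0.10) and the founding PDI P4hb (-0.06) overlapped between the groups.

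**Figure D3:**
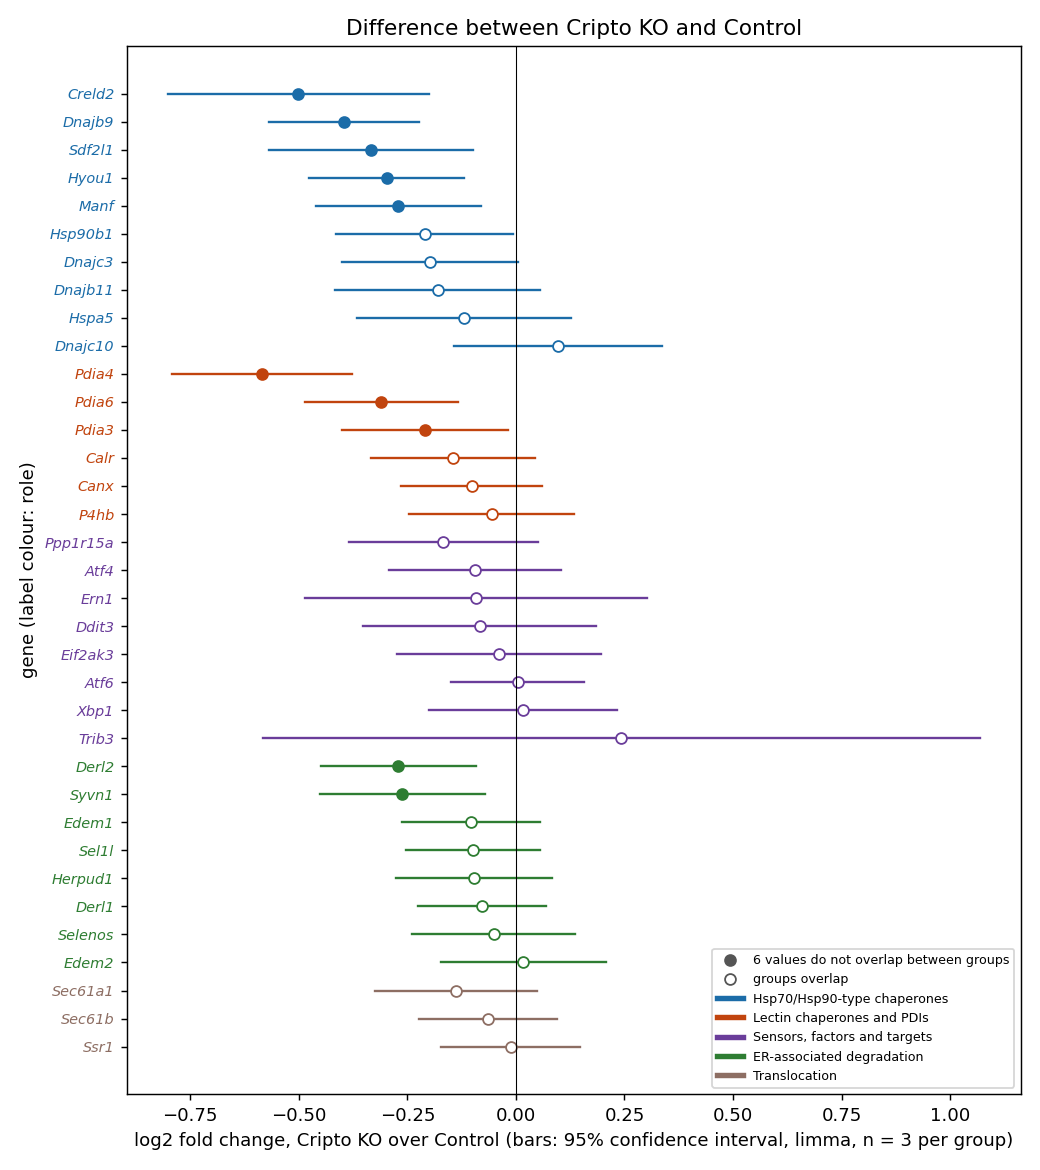
Log2 fold change of Cripto KO over Control for the 35 genes (points) with the 95% confidence interval of the limma fit (bars, n = 3 per group), and filled points where the groups did not overlap. The filled points are 10 genes, 5 of them Hsp70-type or Hsp90-type chaperones and partners, 3 of them PDIs and 2 of them ERAD genes, and all lie below 0.

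Of the 8 sensors, transcription factors and targets, 0 had an unadjusted p-value under 0.05 (4.6% of all genes lower and 3.99% higher). Without overlap there were 0 as well (8.02% of all genes lower and 6.43% higher). With 8 genes, counts of 0 are near these shares. The median log2 fold change was -0.06. The difference between the role groups was not tested. Ern1 encodes IRE1, the kinase and RNase that splices Xbp1. It measured 91.2, 55.7 and 69.8 in Control against 56.4, 66.8 and 77.7 in Cripto KO. The Control samples enclosed the whole range of the Cripto KO samples, with a log2 fold change of -0.09 and a 95% confidence interval from -0.49 to 0.30. It was 0.091 without Control replicate 1 and 0.026 without Cripto KO replicate 1.

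Eif2ak3 encodes PERK, the kinase that phosphorylates eIF2-alpha. It measured 17.8, 20.9 and 18.0 in Control against 17.9, 18.2 and 18.99 in Cripto KO (log2 fold change -0.04, 95% confidence interval -0.27 to 0.20). Atf6, the sensor that is released from the ER and cleaved in the Golgi, measured 82.7, 82.2 and 79.4 in Control against 77.1, 83.3 and 84.9 in Cripto KO (95% confidence interval -0.15 to 0.16). Both genes overlapped between the groups, Eif2ak3 was at 0.036 without Control replicate 2, and the interval of Atf6 limits a difference to 9.77% lower or 11.6% higher.

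Xbp1, the target of IRE1, measured 119, 92.6 and 104 in Control against 99.2, 108 and 111 in Cripto KO (log2 fold change 0.02, 95% confidence interval -0.20 to 0.23). The values per gene do not separate spliced from unspliced Xbp1. Atf4, the factor translated when PERK is active, measured 370.4, 303 and 335 in Control against 290.0, 329 and 323 in Cripto KO (log2 fold change -0.09). Ddit3, which encodes CHOP, measured 62.2, 45.5 and 46.2 in Control against 46.9, 47.7 and 49.04 in Cripto KO (log2 fold change -0.08). In each of these 3 genes Control replicate 1 was the highest of the 6 samples and the groups overlapped. Without it the log2 fold change of Ddit3 was 0.063, and that of Xbp1 was -0.072 without Control replicate 2 and -0.015 without Cripto KO replicate 3.

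Of the remaining targets, Ppp1r15a, which encodes GADD34, the phosphatase subunit that reverses PERK signaling, measured 799.7, 629 and 695 in Control against 596, 677 and 612 in Cripto KO (log2 fold change -0.17). It too was highest in Control replicate 1. Trib3, a target of CHOP, was near 2 in every sample but Cripto KO replicate 1, where it reached 4.41 (log2 fold change 0.24, 95% confidence interval -0.58 to 1.07). Without that sample its log2 fold change was -0.185.

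Among the 8 ERAD genes, 2 had an unadjusted p-value under 0.05, both lower in Cripto KO (4.6% of all genes). These 2 were without overlap (8.02% of all genes lower), and the median log2 fold change of the 8 was -0.10. Derl2 encodes Derlin-2, a membrane protein of the export channel. It measured 53.9, 61.4 and 54.6 in Control against 48.0, 47.2 and 45.3 in Cripto KO, 17.1% lower (log2 fold change -0.27, limma adjusted p = 0.420). Syvn1 encodes HRD1, the ubiquitin ligase at the center of ERAD, and measured 53.6, 48.2 and 52.3 in Control against 40.3, 46.3 and 42.1 in Cripto KO, 16.6% lower (log2 fold change -0.26, limma adjusted p = 0.479). In both genes every Cripto KO sample lay below every Control sample.

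The other ERAD genes were closer to 0 on the log2 scale. Sel1l, the partner of HRD1, was at -0.10, Herpud1 at -0.10, Edem1 at -0.10, Derl1 at -0.08 and Selenos at -0.05, while Edem2 was at 0.02 (-0.055 to 0.091 when 1 sample was left out). The 3 translocation genes, Sec61a1 (-0.14), Sec61b (-0.06) and Ssr1 (-0.01, and -0.050 to 0.038 when 1 sample was left out), overlapped between the groups. Sec61b shares 54.5% of its 31-base words with other genes, chiefly the copy Gm10320, so its level is uncertain.

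The order of the samples differed between roles. The chaperones were highest in Control replicate 2 for 7 of 10 genes and the lectin chaperones and PDIs for 5 of 6, whereas the sensors, factors and targets were highest in Control replicate 1 for 5 of 8. Over all 35 genes, 19 were highest in Control replicate 2 (18.4% of all genes) and 18 were lowest in Cripto KO replicate 1 (20.9% of all genes). Relative to the Control mean, the median chaperone was at -0.14, 0.11 and 0.04 on the log2 scale in Control replicates 1, 2 and 3 and at -0.34, -0.13 and -0.25 in Cripto KO replicates 1, 2 and 3. Control replicate 1 thus lay just below Cripto KO replicate 2 for this role, and the medians overlapped between the groups. For the lectin chaperones and PDIs, Control replicate 1 (-0.147) lay barely above Cripto KO replicate 2 (-0.149). The median of the sensors, factors and targets was at 0.16, -0.15 and -0.02 in Control and at -0.10, -0.06 and -0.02 in Cripto KO, with the Control samples on both sides of the Cripto KO samples.

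**Figure D4:**
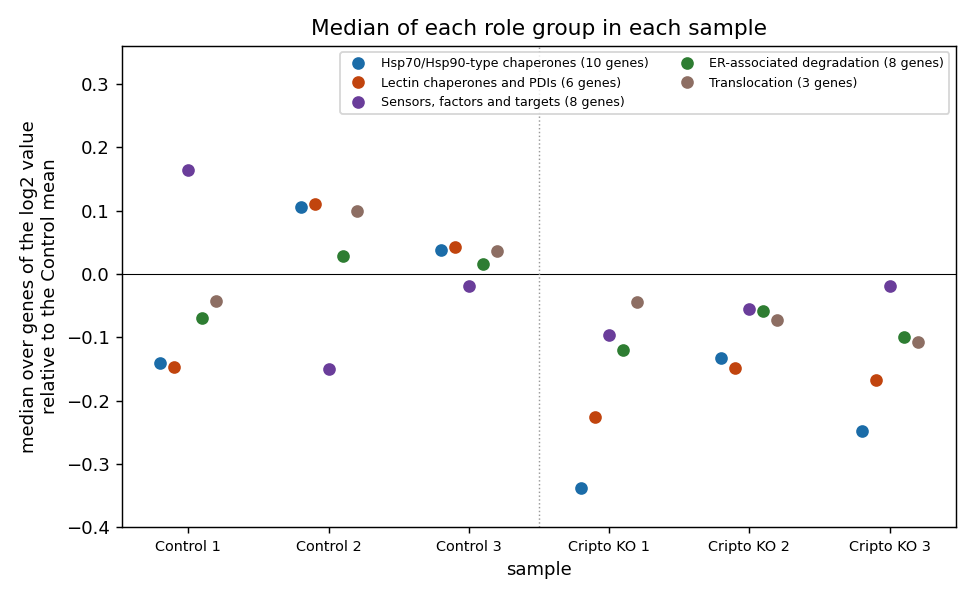
Median over the genes of each role of the log2 value relative to the Control mean (y axis) in each sample (x axis). The chaperones (blue) and the lectin chaperones and PDIs (orange-red) lie highest in Control 2 and Control 3, and the sensors, factors and targets (purple) span 0.16 to -0.15 within Control.

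Genes with and without the first form of the ER stress response element in their promoter were set side by side. Of the 8 genes with the element, 4 were lower with an unadjusted p-value under 0.05, beside 4.6% of all genes. They were Creld2, Pdia6, Syvn1 and Hsp90b1, the last with overlapping groups and such a p-value in 7 of 16 fits. Of the 8, 3 were lower without overlap (8.02% of all genes), and the median log2 fold change was -0.20. Of the 22 matched genes without it, 5 had such a p-value, 5 were without overlap, and the median was -0.09. Among these 22, Dnajb11 and Herpud1 hold the second form of the element. With either form there were 10 genes, 4 of them with such a p-value, and the median was -0.19. Without either form there were 20 genes, 5 of them with such a p-value, and the median was also -0.09. Pdia4 and Dnajb9, with the smallest p-values, were among the 22. Hyou1, Manf, Atf6, Derl1 and Sec61a1 had no matched promoter and are in none of these sets. Of these, Hyou1 and Manf had an unadjusted p-value under 0.05 and were without overlap. The difference between these sets was not tested, and Hspa5, with the element, was at -0.12.

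A wider list held 79 measured genes of ER folding, degradation, stress signaling, translocation and glycosylation. In limma, edgeR or DESeq2, 0 of them reached an adjusted p-value under 0.05. In limma, 8 with an unadjusted p-value under 0.05 were lower in Cripto KO (4.6% of all genes) and 1, Atf5, was higher (3.99%). The log2 fold change was negative for 56 of the 79, against 6839 of all 13008 genes, with a median of -0.07. Without overlap, 12 were lower (8.02% of all genes) and 2 higher (6.43%). The smallest p-value was that of Txndc11, a thioredoxin-domain partner of the mannosidases of ERAD, which measured 35.9, 37.5 and 36.2 in Control against 29.0, 32.2 and 28.2 in Cripto KO (log2 fold change -0.30, limma adjusted p = 0.420). Atf3, a stress-induced transcription factor, measured 1368, 1568 and 1504 in Control against 1291, 1304 and 1171 in Cripto KO (log2 fold change -0.24). In both genes the groups did not overlap.

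Hspa13, an atypical Hsp70 of microsomes, measured 26.3, 24.3 and 23.0 in Control against 20.3, 20.8 and 20.6 in Cripto KO (log2 fold change -0.25). Stt3b, a catalytic subunit of oligosaccharyltransferase, measured 91.7, 99.9 and 97.7 in Control against 81.6, 90.2 and 80.9 in Cripto KO (log2 fold change -0.20). Sec62, a translocon subunit, measured 81.9, 90.0 and 86.4 in Control against 70.8, 76.3 and 79.6 in Cripto KO (log2 fold change -0.19). By role, the folding genes had a median of -0.08 (2 of 21 with an unadjusted p-value under 0.05), translocation and glycosylation -0.10 (4 of 22), degradation -0.03 (0 of 13) and signaling -0.01 (3 of 23, 1 of them higher). Beside these counts stand 4.6% of all genes lower and 3.99% higher.

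**Figure D5:**
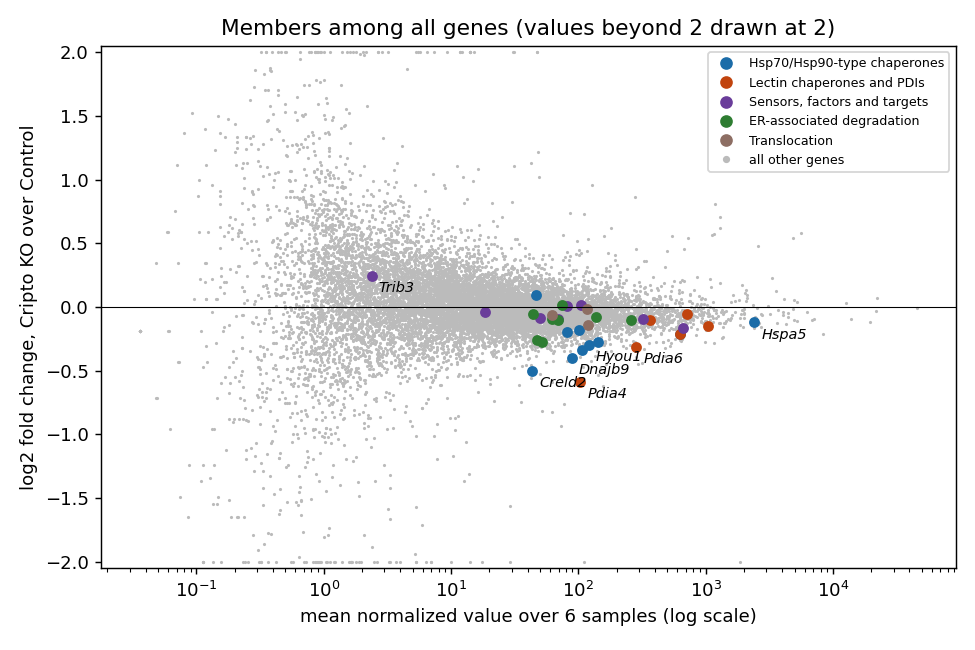
Log2 fold change of Cripto KO over Control (y axis) against the mean normalized value over the 6 samples (x axis, log scale) for all 13008 genes (gray) and the 35 ER genes (colored by role), with 105 genes beyond 2 drawn at 2. Most colored points lie below 0 at mean values where the gray cloud is narrow, and Trib3, at the left, lies where it is wide.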

How the data were processed

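RNA-seq values of 6 samples (3 Control, 3 Cripto KO, grouped by the labels) were used. The authors trimmed reads with Cutadapt 1.7.1, mapped and counted them with RSEM 1.2.20 against mouse transcripts of GRCm38, and normalized the result with LIMMA. The deposited values are a normalized signal, in which 0.5 was added to a gene's reads before scaling to a library size of 1000000. All of the 78048 values (100%) gave whole reads within 0.01 read, and 3 reads correspond to a value of 0.222 to 0.286.

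Groups were compared with limma 3.58.1 (lmFit, eBayes with a variance trend, R 4.3.3) on log2 values, with no pseudocount, across the 13008 genes, with Benjamini-Hochberg adjustment and no replicate block. Percentages lower or higher in Cripto KO were taken from the log2 fold change and its interval, not from the means. With 3 samples against 3, no exact permutation p can be under 0.1. Alternatives were log2(value + 1), a mean value of at least 1, quantile normalization, median centring, no trend, voom, edgeR 4.0.16, DESeq2 1.42.0, a block on the replicate number and omission of each sample in turn. With edgeR, 10 of the 35 genes and 4.06% of all genes were lower with an unadjusted p-value under 0.05. Of the fits, limma, edgeR, DESeq2 and voom were run on simulated data with known changes. Those changes were about as large as that of Pdia4 or larger, so the recovery of smaller changes was not tested.

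The members and lists were chosen with earlier results of these data known. Values in every sample are given for Hspa5, the 3 sensors, Xbp1, Atf4, Ddit3 and each member with an unadjusted p-value under 0.05. For the wider pathway list, the 5 genes with the smallest p are given. Values of Ppp1r15a and Trib3 were added after their values were seen. Lengths and positions are from GENCODE mouse release M21 (GRCm38), and promoters from RefSeq (GRCm38.p6), where motifs were searched on both strands. Shared sequence was counted as 31-base words of the transcripts. Some listed markers of other cell types were not analysed or are not reported here.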

Additional observations from a re-analysis of the deposited data

How the results depend on the processing

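The number of the 35 genes with an unadjusted p-value under 0.05 lay between 9 and 15 over 16 fits, all of them lower in Cripto KO. Between 3.03% and 5.44% of all genes were lower with such a p-value in these fits. In all 16, 9 genes (Pdia4, Dnajb9, Pdia6, Hyou1, Creld2, Derl2, Sdf2l1, Manf and Syvn1) had such a p-value. The fits reuse the same samples, and the share of all genes called in every fit was not computed. With an adjusted p-value under 0.05, DESeq2 called 2 genes, Pdia4 and Dnajb9 (71 genes in all). Leaving out 1 sample gave between 0 and 1, the 1 being Pdia4 without Control replicate 1 (31 genes in all). The median log2 fold change was -0.056 under quantile normalization, and the cause was not tested. With all samples kept, the genes without overlap numbered 10 in the main fit and 7 under quantile normalization (13.3% of all genes). They numbered 9 with median centring and on the values scaled by edgeR or DESeq2. The genes without overlap numbered 11 to 20 when 1 sample was left out, 20 without Control replicate 1 and 18 without Cripto KO replicate 2. Fewer samples leave 21.9% to 28.1% of all genes without overlap, against 14.5% with all samples in the main fit.

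Of the wider list of 79 genes, 5 had an unadjusted p-value under 0.05 under quantile normalization and without a variance trend. In each, 4 were lower in Cripto KO, where 3.80% and 3.45% of all genes were. DESeq2 gave 3, all lower (3.03% of all genes). Leaving out 1 sample gave 3 to 12, with 3.14% to 5.44% of all genes lower. The direction of Ern1 (-0.26 to 0.091), Ddit3 (-0.16 to 0.063), Eif2ak3 (-0.082 to 0.036), Xbp1 (-0.072 to 0.11), Atf6 (-0.023 to 0.046), Trib3 (-0.185 to 0.49), Edem2 (-0.055 to 0.091), Ssr1 (-0.050 to 0.038) and Dnajc10 (-0.00043 to 0.17) depended on which sample was left out, and none was called. In the fit with the replicate block, 12 of the 35 genes had an unadjusted p-value under 0.05, all lower, beside 3.75% of all genes. An adjusted p-value under 0.05 was reached by 0 of the 35 and by 2 of all genes. The block was not used, since same-numbered samples did not deviate together (correlations of -0.21, -0.0052 and -2.5e-05).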

Other observations

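The ER stress response element was also found in promoters of genes outside the list. Of the 37 genes whose promoter holds it, 15 were measured, and 7 of these are not among the 35 ER genes. Their log2 fold changes (Cripto KO over Control) were negative for 4 and positive for 3, with a median of -0.09 and 0 of 7 at an unadjusted p-value under 0.05 in the lower direction and 1, Spats2l (0.72, mean value 1.499, limma adjusted p = 0.561), in the higher. The others were Pan2 at 0.35, Adcy3 at 0.05, Hnrnpa3 at -0.09, Alg12, a mannosyltransferase of N-glycan assembly in the ER, at -0.22, Gm20560 at -0.32 and Xlr3b at -1.88.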
